A study of Homo sapiens with 42 samples.

Results

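The chromatin loops described here lie on chromosome 17 around MAP3K14 and PLEKHM1. They are the loops with a left or right anchor starting between positions 45000000 and 46000000 of GRCh38, a window that runs from FMNL1 and MAP3K14 to CRHR1. The rule gave 15 of the 33914 loops in the deposited table, and all 15 had enough contacts to be tested. The window was chosen because it holds loop29702, the loop with the largest fall of all tested loops at 6 h, so each 6 h value below is a description with no p, and the count of 6 h calls supports nothing. The same holds for loop29702 at 72 h, since that comparison uses the same 0 h libraries.

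The cells were K562, an established human leukemia line, with no genetic change named in the labels. They were sampled untreated (0 h) and after 6 h and 72 h in 25 nM PMA, a phorbol ester that activates protein kinase C and drives these cells toward a megakaryocyte-like state. Contacts were counted by in situ Hi-C, which ligates neighbouring DNA ends in fixed nuclei and sequences the joined pairs, in 4 biological replicates per time. The 12 libraries held between 736929 and 1472197 contacts over all loops. A chi-square test over loops found no difference between replicates 3 and 4 beyond sampling noise at 0 h or at 72 h, so they were counted as 1 sample at these times: means ± SD below have n = 3 at 0 h, n = 4 at 6 h and n = 3 at 72 h. At 0 h and 72 h the SD leaves out the difference between replicates 3 and 4, which was wide at some loops. K562 is 1 line, so the p-values measure the spread between its cultures only.

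A chromatin loop is a pair of distant DNA segments, the anchors, that meet more often than the sequence around them. Many loops form when cohesin extrudes DNA until it is stopped by CTCF bound at convergent motifs, and others join promoters to enhancers. MAP3K14 encodes NIK, the kinase that starts the non-canonical NF-kB pathway by leading to the processing of p100 (NFKB2) to p52, which then acts with RELB. PLEKHM1 is a RAB7 effector that brings late endosomes and autophagosomes to lysosomes and is needed for bone resorption by osteoclasts. FMNL1 is a formin that builds actin filaments in blood cells, ARHGAP27 is a GTPase-activating protein, and CRHR1 is the receptor of corticotropin-releasing hormone.

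Promoters of 5 starts at or near the anchors that the results turn on are printed first, with the letters of a motif in capitals. These 5 were picked from more starts, so how many of them hold a match is not to be set against the percentages below. The motifs were a CTCF core (AGGGGGC), found in 14.4% of 35116 RefSeq promoters of the same length, an AP-1 site (TGANTCA, 7.71%) and a kappaB site (GGGANNNNCC, 25.6%). Both strands were searched. The FMNL1 promoter (chr17:45221635-45221934, plus strand, CTCF core) starts its transcript 1885 bp from the left anchor of loop29702, and a LINC02210 promoter (chr17:45620365-45620664, plus strand, 2 kappaB sites) starts 9386 bp from the right anchor. The HEXIM1 promoter (chr17:45148225-45148524, plus strand) starts inside an anchor of loop29701, and its CTCF core overlaps its kappaB site. An ARHGAP27 start at chr17:45425584-45425883 (minus strand, 2 kappaB sites) lies in an anchor of loop29704. Another at chr17:45432821-45433120 (minus strand, kappaB) lies in an anchor of loop29705. None of the 5 held an AP-1 site. Of the starts not printed, a further ARHGAP27 start (9615 bp from the loop29704 anchor) held no match. Near loop29702, FMNL1-DT (1765 bp) and a LINC02210-CRHR1 start (8093 bp) held none. Other starts of LINC02210 (9672 bp) and LINC02210-CRHR1 (9655 bp) held a CTCF core. The MAP3K14 promoter, 37020 bp from the nearest anchor, held a CTCF core and no kappaB site. Sequences are from RefSeq, GRCh38.p14, written 5′ to 3′ in the direction of the gene.
FMNL1: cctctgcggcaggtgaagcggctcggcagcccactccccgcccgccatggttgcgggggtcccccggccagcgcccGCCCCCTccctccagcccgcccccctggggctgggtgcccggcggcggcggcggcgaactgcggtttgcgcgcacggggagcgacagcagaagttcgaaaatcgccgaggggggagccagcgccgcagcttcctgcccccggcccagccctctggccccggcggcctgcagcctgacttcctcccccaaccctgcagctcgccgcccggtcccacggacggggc
LINC02210: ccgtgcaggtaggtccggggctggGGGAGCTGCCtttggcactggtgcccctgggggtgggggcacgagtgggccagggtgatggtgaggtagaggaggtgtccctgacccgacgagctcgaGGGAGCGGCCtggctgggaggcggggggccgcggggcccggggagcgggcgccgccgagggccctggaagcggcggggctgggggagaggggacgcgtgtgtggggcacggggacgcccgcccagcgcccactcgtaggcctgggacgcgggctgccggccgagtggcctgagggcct
HEXIM1: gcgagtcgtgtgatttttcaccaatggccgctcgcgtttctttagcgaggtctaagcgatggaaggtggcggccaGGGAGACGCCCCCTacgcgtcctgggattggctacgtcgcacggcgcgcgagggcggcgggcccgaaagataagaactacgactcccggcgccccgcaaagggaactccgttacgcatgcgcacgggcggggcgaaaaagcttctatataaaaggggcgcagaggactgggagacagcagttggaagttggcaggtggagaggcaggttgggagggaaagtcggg
ARHGAP27, start in loop29704: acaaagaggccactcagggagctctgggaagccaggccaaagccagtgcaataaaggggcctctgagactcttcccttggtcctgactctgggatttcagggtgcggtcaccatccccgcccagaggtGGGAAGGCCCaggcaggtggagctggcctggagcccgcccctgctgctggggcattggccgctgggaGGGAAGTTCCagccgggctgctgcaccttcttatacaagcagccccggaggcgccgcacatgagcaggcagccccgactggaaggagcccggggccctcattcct
ARHGAP27, start in loop29705: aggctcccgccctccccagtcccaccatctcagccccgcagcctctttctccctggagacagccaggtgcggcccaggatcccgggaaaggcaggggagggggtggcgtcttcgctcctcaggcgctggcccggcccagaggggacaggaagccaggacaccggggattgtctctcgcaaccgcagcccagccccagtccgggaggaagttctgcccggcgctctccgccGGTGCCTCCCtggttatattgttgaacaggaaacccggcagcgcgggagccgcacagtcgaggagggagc
A match is a description of these letters and does not show that a factor binds.

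loop29702 joins an anchor at chr17:45210001-45220000, inside the divergent transcript FMNL1-DT, to one at chr17:45630001-45640000, which lies inside LINC02210 and the readthrough LINC02210-CRHR1. The anchors are 420 kb apart, and FMNL1, SPATA32, MAP3K14, ARHGAP27 and PLEKHM1 lie wholly between them. At 0 h its normalized count (contacts per 1000000 in tested loops) was 36.9, 31.3, 30.1 and 40.9 in replicates 1 to 4. The 6 h libraries gave 12.7, 12.1, 15.6 and 15.7. The 72 h libraries gave 6.19, 12, 9.36 and 10.7. Every treated library lay below every untreated one, and every 72 h library below every 6 h library, though the closest of these, 12 and 12.1, hardly differed.

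The 0 h mean of loop29702 of 34.6 ± 2.9 (SD) compares with 14 ± 1.9 after 6 h and 9.42 ± 3.0 after 72 h. The fitted log2 change was -1.34 (SE 0.23) at 6 h, 60.4% lower than at 0 h, and -1.87 (SE 0.24) at 72 h, 72.6% lower. Between 6 h and 72 h it was -0.53 (SE 0.30). It was the lowest of the 24132 tested loops at 6 h, and the next values were -1.32 for loop26593 on chromosome 14, -1.24 for loop33738 on chromosome X and -1.23 for loop7790 on chromosome 3. Those 3 loops were also picked as extremes at 6 h and had fewer contacts. Their normalized means were 15.4, 10.5 and 11.2 at 0 h and 6, 4.01 and 4.66 at 6 h. At 72 h they stood at -0.65, 0.31 and 0.46 against 0 h, while loop29702 ranked 3 from the lowest. In raw contacts the loop had 144 over the 0 h libraries (exact 95% Poisson interval 121.4 to 169.5), 50 over the 6 h libraries (37.1 to 65.9) and 40 over the 72 h libraries (28.6 to 54.5). The intervals cover counting error only. In the authors' deposited table its log2 values were -1.12 and -1.71, and it was the only 1 of the 15 classed as lost, the other 14 being static.

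**Figure D1:**
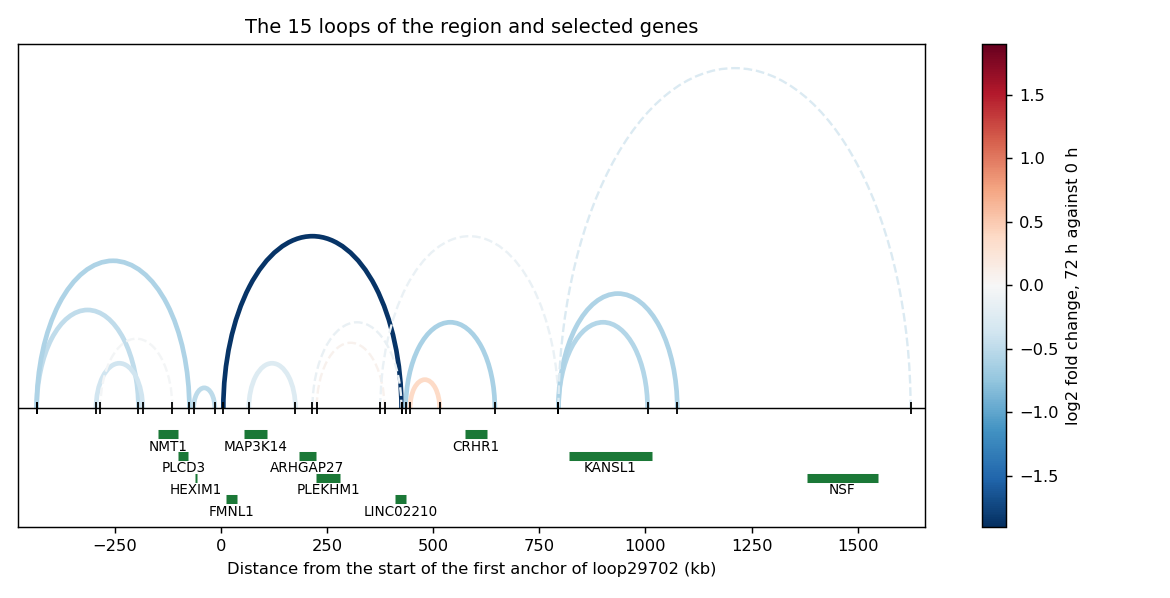
Map of the 15 loops by distance in kb from the start of the left anchor of loop29702, with arcs joining the anchors, colour giving the log2 fold change at 72 h and selected genes as green bars. Solid thick arcs passed the edgeR threshold at 72 h and dashed arcs did not, and arc height follows loop length only. loop29702 is the darkest arc (-1.87), over MAP3K14, ARHGAP27 and PLEKHM1.

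loop29704 is the 1 loop that shares an anchor with loop29702. It uses the same right anchor and ends 210 kb to its left, in ARHGAP27, so that it spans PLEKHM1. Its normalized count was 52.1, 40.8, 41.4 and 35.2 at 0 h, 43.1, 40.2, 41.0 and 39.8 at 6 h, and 38.9, 37.1, 45.8 and 36.6 at 72 h. The 3 times overlapped, and the log2 change at 72 h was -0.14 (SE 0.16, edgeR adjusted p = 0.537). The raw contacts of loop29702 were 0.71 to 1.16 times those of loop29704 in the 0 h libraries, 0.30 to 0.39 times at 6 h and 0.16 to 0.32 times at 72 h. These ratios use raw contacts within a library, and those of 0 h did not overlap with the later ones. Since loop29702 was chosen for its fall, this gap is a description and supports nothing.

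loop29707 starts 1 bin (10 kb) to the right of that anchor, at the end of LINC02210, and runs 210 kb over CRHR1 into MAPT-AS1. The loop's normalized count was 84.7, 71.2, 80.3 and 85.3 at 0 h, 98.0, 95.3, 115 and 97.7 at 6 h, and 46.9, 43.2, 60.3 and 60.7 at 72 h. All 6 h libraries lay above all 0 h libraries, and all 72 h libraries below both. The log2 value was 0.32 (SE 0.12) at 6 h, without a test. It fell at 72 h against 0 h (-0.61, SE 0.14, edgeR adjusted p = 0.00015) and against 6 h (-0.93, SE 0.13, edgeR adjusted p = 1.7e-08). Within replicates 3 and 4 alone the fall against 0 h was -0.45 (edgeR adjusted p = 0.064).

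**Figure D2:**
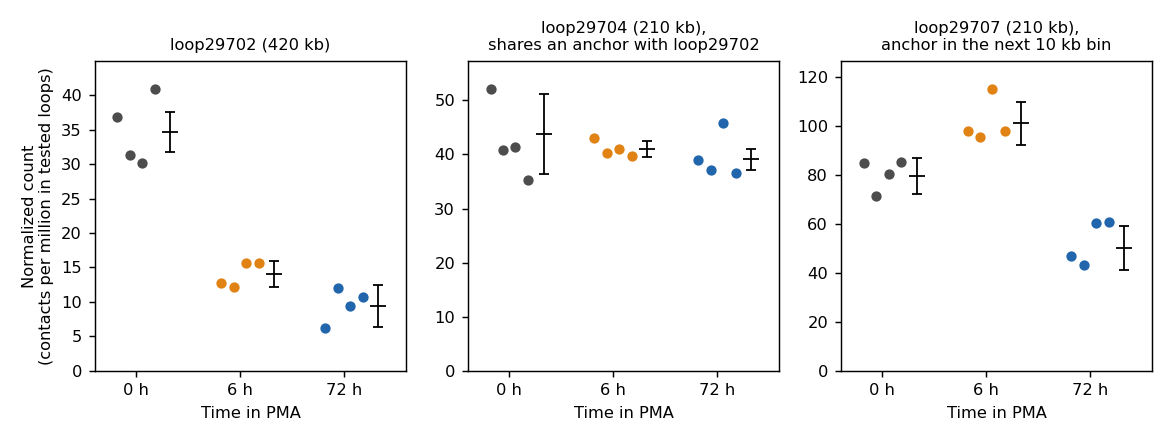
Normalized count by time in PMA, with 1 point per library and the mean ± SD beside it, for loop29702, loop29704 and loop29707. loop29702 drops from 34.6 to 14 and 9.42, loop29704 stays between 35.2 and 52.1, and loop29707 is highest at 6 h and lowest at 72 h.

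loop29708 lies next to loop29707, within LINC02210-CRHR1, and is 70 kb long. In normalized counts the libraries stood at 59.4, 64.6, 82.8 and 72.8 at 0 h, 85.3, 98.1, 84.9 and 72.4 at 6 h, and 86.7, 82.3, 93.6 and 93.7 at 72 h. It was the 1 loop of the region that rose at 72 h (0.38, SE 0.13, edgeR adjusted p = 0.012), though 0 h replicate 3 overlapped with the 72 h libraries. The call was lost without 0 h replicate 1 (0.28, edgeR adjusted p = 0.125), and DESeq2 gave an adjusted p of 0.067. It was also lost with no filter on low counts (edgeR adjusted p = 0.058). Within replicates 1 and 2 the value was 0.44 (edgeR adjusted p = 0.06), and within replicates 3 and 4 it was 0.27 (edgeR adjusted p = 0.253).

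On the left of loop29702, loop29701 joins the start of HEXIM1, an inhibitor of the elongation factor P-TEFb, to the far end of FMNL1-DT, 50 kb away. Its libraries had normalized counts of 173, 151, 174 and 174 at 0 h, 139, 98.1, 136 and 145 at 6 h, and 136, 112, 116 and 109 at 72 h. All treated libraries lay below all untreated ones. The log2 value was -0.39 (SE 0.11) at 6 h, without a test, and it fell by 0.50 on the log2 scale at 72 h (SE 0.10, edgeR adjusted p = 5.1e-05), a call that held in all 25 alternatives. Between 6 h and 72 h the difference was -0.11 (SE 0.11, edgeR adjusted p = 0.506).

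Inside loop29702, the anchor of loop29703 lies in the body of MAP3K14, the NIK gene, and its other anchor holds no end of a gene. This loop was named after its values were seen. Normalized counts of the loop were 223, 184, 173 and 189 at 0 h, 177, 171, 191 and 169 at 6 h, and 173, 152, 166 and 155 at 72 h, with 0 h replicate 3 at the level of 72 h replicate 1. It fell by 0.26 on the log2 scale at 72 h (SE 0.10, edgeR adjusted p = 0.022). The call held in 16 of 25 alternatives. It was lost without 0 h replicate 1 (-0.19, edgeR adjusted p = 0.183), 72 h replicate 2 (edgeR adjusted p = 0.066) or 72 h replicate 4 (edgeR adjusted p = 0.058), and DESeq2 gave an adjusted p of 0.059. Total count scaling (edgeR adjusted p = 0.056) and the loop length correction (edgeR adjusted p = 0.063) lost it too. Within replicates 1 and 2 the value was -0.35 (edgeR adjusted p = 0.059), and within replicates 3 and 4 it was -0.18 (edgeR adjusted p = 0.309).

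loop29705 is the loop with ends of ARHGAP27 and PLEKHM1, the lysosome fusion adaptor, in an anchor. It is 160 kb long. Its normalized counts were 39.8, 31.3, 40.1 and 36.4 at 0 h, 46.1, 53.3, 36.8 and 47.1 at 6 h, and 42.5, 38.1, 44.7 and 31.2 at 72 h. The times overlapped, and the log2 change at 72 h was 0.08 (SE 0.17, edgeR adjusted p = 0.759). No end of FMNL1, MAP3K14 or CRHR1 lay in an anchor, so loops at these 3 genes are described only by what they span or by an anchor in the gene body.

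At the right edge, 4 loops share the anchor at chr17:46000001-46010000, inside MAPT, which encodes the tau protein. loop29709 joins it to the body of KANSL1, a subunit of the NSL histone acetyltransferase complex, 210 kb away. By library, its normalized count was 94.9, 105, 75.3 and 85.3 at 0 h, 112, 87.8, 90.6 and 109 at 6 h, and 68.1, 60.2, 68.6 and 53.6 at 72 h. All 72 h libraries lay below all others, and the fall was -0.55 against 0 h (SE 0.13, edgeR adjusted p = 0.00033) and -0.67 against 6 h (SE 0.13, edgeR adjusted p = 3.3e-05). Within replicates 3 and 4 alone the fall against 0 h was -0.41 (edgeR adjusted p = 0.103).

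The other 3 loops of that anchor were named after their values were seen. loop29710, 280 kb long, ends inside LRRC37A, which belongs to a family with near-identical copies in this part of the chromosome, and how such reads were counted is not given in the sources used here. It fell at 72 h from 69.8 ± 3.8 to 46.6 ± 5.3 (-0.59, SE 0.14, edgeR adjusted p = 0.00051), with no overlap between 0 h and 72 h. Its 72 h libraries stood at 41.6, 52.2, 57.2 and 34.8, so replicates 3 and 4 lay further apart than this SD shows. Against 6 h it fell by 0.50 on the log2 scale (SE 0.15, edgeR adjusted p = 0.0096), a call that was lost without 72 h replicate 4 (edgeR adjusted p = 0.076), with DESeq2 (adjusted p = 0.063) and within either pair of replicates (edgeR adjusted p = 0.063 within 1 and 2, and 0.181 within 3 and 4). loop29706, which runs 420 kb to the left as far as the pseudogene DND1P1, stood at 33 ± 0.65 at 0 h, 28.7 ± 6.9 at 6 h and 30.1 ± 0.93 at 72 h (72 h against 0 h -0.13, edgeR adjusted p = 0.607). Its 72 h libraries (highest 31) lay just below its 0 h libraries (lowest 31.8). loop29711, which runs 830 kb to the right to WNT9B, had the fewest contacts of the other loops, 20.6 ± 4.3 at 0 h and 15.5 ± 4.8 at 72 h (-0.28, edgeR adjusted p = 0.381). The right anchor of loop29711 lies inside LRRC37A2, of the same family as LRRC37A, so the same limit on reads holds there. The pseudogene DND1P1 at loop29706 is as long as DND1P2 to its right (1561 bp). How reads of such a pair were counted is not given either.

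The 4 loops at the left edge, also named after their values were seen, join ADAM11, DCAKD, PLCD3, ACBD4, KIF18B and NMT1. loop29699, from GFAP to DCAKD, fell at 72 h from 116 ± 15 to 85.5 ± 6.1 (-0.38, edgeR adjusted p = 0.0058), with no overlap, but the value was -0.58 within replicates 1 and 2 and -0.15 within replicates 3 and 4 (edgeR adjusted p = 0.526). loop29697 fell from 38.9 ± 4.2 to 26.1 ± 7.8 (-0.48, edgeR adjusted p = 0.032), a call lost without 0 h replicate 1 or 4 or without 72 h replicate 1 or 2, where the adjusted p was up to 0.171, and with DESeq2 (adjusted p = 0.124). Its value was -0.83 within replicates 1 and 2 and -0.18 within replicates 3 and 4. loop29698, from ADAM11 to the starts of PLCD3 and ACBD4, fell from 30.5 ± 2.4 to 22.6 ± 8.3 (-0.59, edgeR adjusted p = 0.019). Its libraries overlapped, at 28.2, 30.4, 25.1 and 40.9 at 0 h and 22.1, 31.1, 17.7 and 11.6 at 72 h. This call was lost without 0 h replicate 4 (edgeR adjusted p = 0.101) or 72 h replicate 4 (edgeR adjusted p = 0.162) and with DESeq2 (adjusted p = 0.088). Within replicates 1 and 2 the value of loop29698 was -0.16 and within replicates 3 and 4 it was -1.21. loop29700, from KIF18B to the body of NMT1, stood at 66.4 ± 6.3 and 66.5 ± 4.8 (-0.04, edgeR adjusted p = 0.857).

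**Figure D3:**
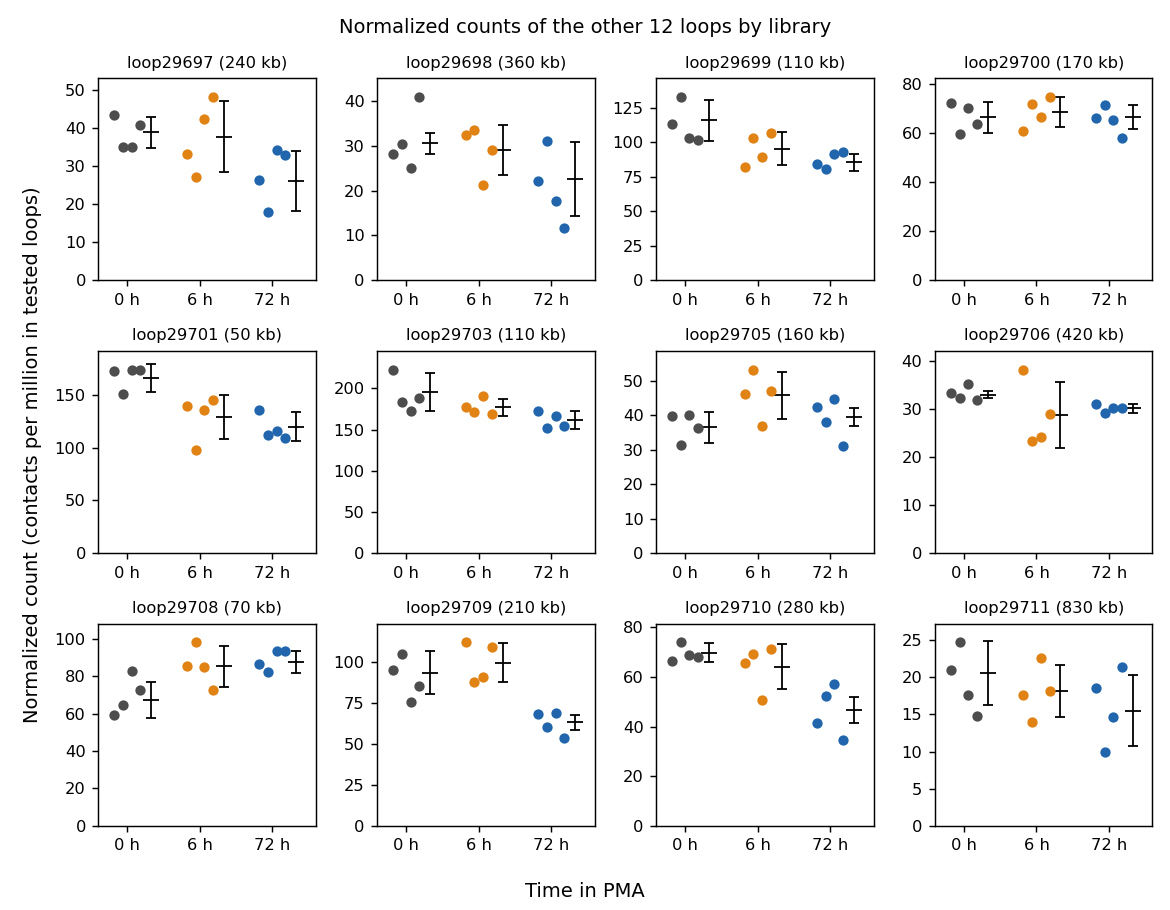
Normalized count by time in PMA for the other 12 loops, with 1 point per library, the mean ± SD beside it and each vertical axis starting at 0. loop29697, loop29699, loop29701, loop29706, loop29709 and loop29710 have all 72 h points below all 0 h points, though the fall of loop29706 did not pass the threshold. loop29708 is the 1 loop that rose. loop29698, loop29700, loop29703, loop29705, loop29708 and loop29711 overlap between all times, though loop29698, loop29703 and loop29708 passed the threshold at 72 h.

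Over the region, 2 of the 15 loops passed the threshold at 6 h (edgeR, adjusted p under 0.05), loop29701 and loop29702, against 6.41% of all tested loops, and nothing is read from this count because the region was chosen on it. At 72 h against 0 h, 10 of 15 passed, against 33.6% of all tested loops. Of these, 9 fell, against 16.9% of all tested loops, and 1 rose, against 16.7%. Without loop29702 the count was 9 of 14, 8 of them falls. The other 844 tested loops of chromosome 17 also fell more often than they rose, 30.2% against 7.46%. The region's median log2 change at 72 h was -0.38, that of the other loops of the chromosome -0.21 and that of all tested loops 0.01. The count of 10 was 6 with DESeq2 and 4 within replicates 3 and 4. The authors, who used DESeq2, deposited 1 adjusted p per loop for both times, so it does not test 72 h alone. That value was under 0.05 for loop29701, loop29702, loop29707 and loop29709. For the other loops counted here it ran from 0.069 (loop29710) to 0.33 (loop29703).

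Groups did not overlap between 0 h and 72 h in 8 of the 15 loops, against 28.3% of all tested loops. Without loop29702 it was 7 of 14, and in the other tested loops of chromosome 17 it was 32.1%. The 8 include loop29706, which did not pass the threshold. At 72 h against 6 h, 3 of 15 loops passed, against 20.5% of all tested loops. All 3 were falls, against 9.81% of all tested loops and 17.3% of the other tested loops of chromosome 17. They were loop29707, loop29709 and loop29710. The median log2 change at 72 h against 6 h was -0.13 in the region and -0.14 in the other loops of the chromosome. The summed normalized count of the 14 loops without loop29702 was 1022 to 1105 in the 0 h libraries, 986 to 1057 at 6 h and 817 to 907 at 72 h, so that the 72 h libraries lay below the others. loop29702 made up 2.86% to 3.79% of the region's contacts at 0 h, 1.22% to 1.52% at 6 h and 0.697% to 1.45% at 72 h.

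**Figure D4:**
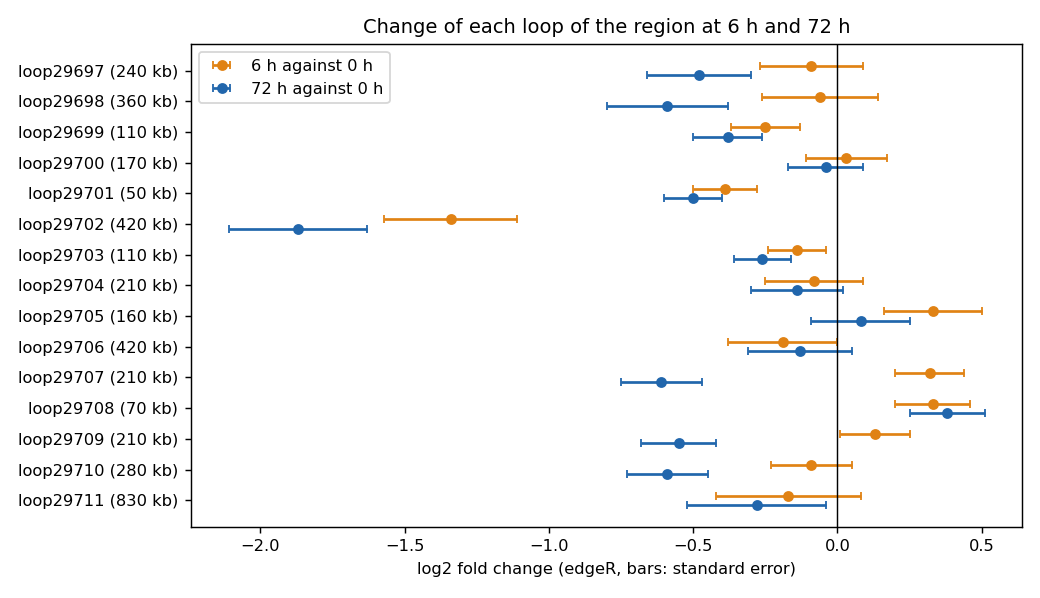
Log2 fold change of each loop at 6 h (orange) and 72 h (blue) against 0 h, with standard errors from edgeR. At 6 h loop29702 stands at -1.34 and the other 14 loops between -0.39 and 0.33, and at 72 h the others lie between -0.61 and 0.38.

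Loops just outside the window were loop29696 on the left, with a log2 change at 72 h of 0.19, and loop29712 on the right, with -0.50. The lengths of the 15 loops ran from 50 kb to 830 kb with a median of 210 kb, against 440 kb over all loops. The 5 loops outside the region most like loop29702 over the 12 libraries, by Pearson's r of the log2 normalized count, were loop28627 and loop28566 on chromosome 16 (0.977 and 0.966), loop21874 on chromosome 11 (0.975), loop16220 on chromosome 7 (0.969) and loop26988 on chromosome 14 (0.967). These points share their libraries and were selected as the highest of all tested loops. Their 72 h changes were smaller, from -0.48 to -0.83.

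Loops at genes of the pathways of MAP3K14 and PLEKHM1 were counted where an anchor held an end of a gene. Both genes are on the lists, but no anchor held an end of MAP3K14, so it adds no loop. Of 17 genes of the non-canonical NF-kB pathway, 9 had a tested loop, 13 loops in all. At 72 h 1 rose, against 16.7% of all tested loops, and 3 fell, against 16.9%, with a median of -0.06 against 0.01. The loop that rose was loop22465 at BIRC2 (0.49, SE 0.18, edgeR adjusted p = 0.029), an ubiquitin ligase of the complex that degrades NIK. The falls were loop22463 at BIRC3, the related ligase (-0.67, SE 0.14, edgeR adjusted p = 6.7e-05), loop20873 at NFKB2, the p100 gene (-1.38, SE 0.38, edgeR adjusted p = 0.0025), and loop29271 at TNFSF12, the ligand TWEAK (-0.36, SE 0.12, edgeR adjusted p = 0.012). DESeq2 called 2 of the 13, both falls. No rise was called with DESeq2, with no filter, within replicates 3 and 4, or without 0 h replicate 1, 0 h replicate 2 or 72 h replicate 2.

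Of 16 genes of late endosome and lysosome fusion, 8 had a tested loop, 11 loops in all. These include PLEKHM1 with loop29705, a loop of this region. At 72 h 4 fell, against 16.9% of all tested loops, and 0 rose, against 16.7%, with a median of -0.25 against 0.01. They were loop29265 at GABARAP, an ATG8 protein of autophagosomes (-0.64, SE 0.14, edgeR adjusted p = 0.00015), loop31230 at VPS16 (-0.58, SE 0.18, edgeR adjusted p = 0.0089) and loop27686 at VPS18 (-0.43, SE 0.10, edgeR adjusted p = 0.00037), both subunits of the HOPS tether, and loop165 at PLEKHM2, a lysosome adaptor of kinesin (-0.38, SE 0.12, edgeR adjusted p = 0.011). Within replicates 1 and 2 the count was 2 and within replicates 3 and 4 it was 1. Expression of these genes was not analysed here.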

How the data were processed

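The authors deposited 1 table of raw contact counts for 33914 loops, each a pair of 10 kb anchors, with 1 column per technical replicate (30 columns), per the file headers. The same deposited table holds log2 fold changes and an adjusted p-value of the authors, copied here without a test of their own. Per the submitters' processing notes, Juicer 1.5.6, DESeq2 and the build hg38 were used; the loop caller is not given in the sources used here. Counts include the local background of each pair of anchors.

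Technical replicates were summed into 12 libraries, and loops were kept by filterByExpr (minimum count 10, minimum total 15), which left 24132. Counts were fitted over all of them with the quasi-likelihood test of edgeR 4.0.16 (R 4.3.3) after TMM scaling, with no covariate, Benjamini-Hochberg adjustment and a threshold of 0.05. A standard error is the log2 fold change over the root of F. Pairs of replicates were set against each other with a chi-square test over loops (replicates 3 and 4: p = 0.0985 at 0 h, 0.0283 at 6 h and 0.577 at 72 h); the fits kept all 12 libraries.

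The loops described, the gene lists and the tests were chosen with earlier results of these data known. Loops named by rule were loop29702, loops within 1 bin of its anchors, loops with an end of FMNL1, MAP3K14, ARHGAP27, PLEKHM1 or CRHR1 in an anchor, and the 4 smallest p-values at 72 h in each direction; the 5 most alike loops elsewhere were added. Alternatives were DESeq2 1.42.0, its size factors or total counts as scaling, no filter, a loop length correction, the replicate number as a block, replicates 1 and 2 against 3 and 4 as a batch term or fitted apart, replicates 3 and 4 summed, a threshold of 0.01, both anchors in the window, gene ends within 10 kb, and each library left out in turn. Gene positions are from RefSeq, GRCh38.p14.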

Additional observations from a re-analysis of the deposited data

Results flagged for a closer look

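The normalized count of loop29707 in 6 h replicate 3 was 115, apart from the other 3 libraries of that time at 95.3 to 98.0. This was 1 sample among 15 groups of 4 libraries examined, where chance gives about 0.75.

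The 6 h and 72 h effects of loop29707 differed by -0.93 on the log2 scale (edgeR adjusted p = 1.7e-08), with 6 h above 0 h and 72 h below it in 4 of 4 libraries. Those of loop29709 differed by -0.67 (edgeR adjusted p = 3.3e-05), from 0.13 at 6 h to -0.55 at 72 h.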

How the results depend on the processing

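No loop of the region past the threshold at 72 h, against 0 h or 6 h, changed direction in its alternatives. The log2 change of loop29702 ranged from -1.19 (within replicates 3 and 4) to -1.47 (within replicates 1 and 2) at 6 h, and from -1.70 to -2.0 at 72 h, over all alternatives run. Of the 10 loops past the threshold at 72 h against 0 h, 6 were left by count with DESeq2, with or without its independent filtering, 4 within replicates 3 and 4, 6 at a threshold of 0.01 and 5 with both anchors in the window; leaving out single libraries gave 7 to 10. At 72 h against 6 h, 3 became 1 with both anchors in the window and 2 to 4 without single libraries. At 6 h, 2 became 1 with DESeq2 (either filtering), within either pair of replicates and at 0.01, and 1 to 2 without single libraries, the 1 being without 6 h replicate 2. Correcting for loop length gave 1 fall and 1 rise there, and total count scaling 2 falls and 1 rise. Loops at non-canonical NF-kB genes went from 4 to 2 with DESeq2 (either filtering), within replicates 3 and 4 and at 0.01, to 10 of 32 with gene ends within 10 kb, and to 3 to 6 without single libraries. Loops at lysosome fusion genes went from 4 to 2 within replicates 1 and 2, 1 within replicates 3 and 4, 10 of 26 within 10 kb, and 3 to 4 without single libraries. Fewer loops or libraries enter the window, threshold and within-replicate settings by construction; the cause of the other shifts was not tested. With replicates 3 and 4 summed at 0 h and 72 h or at every time, alternatives chosen after seeing the data, the 72 h count stayed at 10.

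The main fit did not pair libraries by replicate number. Deviations of same-numbered libraries correlated weakly but always positively, at 0.015 to 0.124 over 12 pairs, 1 of them above 0.1. In 21 of 24 cases a library correlated best with its own number, so same-numbered libraries share some deviation. With the replicate block, 10 loops passed at 72 h against 0 h, 3 at 72 h against 6 h, 2 at 6 h, 5 at NF-kB genes and 4 at lysosome fusion genes, and loop29702 stood at -1.34 and -1.88. Between the pairs of replicates no loop of the region differed in its change past the threshold, the largest difference at 72 h being -1.06 for loop29698 (edgeR adjusted p = 0.766). Depth limits loop29702, with 7 to 51 raw contacts per library.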
